A study of Mus musculus with 68 samples.

Results

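The change in gene expression between embryonic day (E) 9.5 and E10.5 was measured by RNA sequencing in pharyngeal arch 2 (PA2) of wildtype mouse embryos. The pharyngeal arches are swellings beside the embryonic throat. Each holds mesenchyme, most of it from cranial neural crest, around a core of mesoderm and an arch artery, with ectoderm outside and endoderm inside. The mesenchyme of PA2 later forms the stapes, the styloid process and the lesser horn of the hyoid, and its mesoderm forms the muscles of the face. In the stage range studied, crest cells have entered the arch, the mesenchyme multiplies and takes on dorsal and ventral identities, and epithelia send FGF, BMP and endothelin signals to it.

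The comparison used the libraries that the labels give as wildtype PA2 of these stages, 7 of 68: 4 at E9.5 (replicates 1, 2, 3 and 5) and 3 at E10.5 (replicates 1, 2 and 3). In the series, arches were dissected by hand from embryos of the mixed strain CBA/Ca/J x C57BL/10, wildtype or Hoxa2-/-, at 4 stages, and both arches came from single embryos, per the series text. Some embryos have a library of only 1 arch here. Wildtype PA1 of the same stages, the arch of the jaws (5 and 3 libraries), and PA2 labelled Hoxa2-/- (5 and 3 libraries) served for comparison. Wildtype PA2 of E9.0 (4 libraries) and E10.0 (5 libraries) is given as levels only. Every library is a whole arch with all its cell types, so for each gene fewer cells of a type and less RNA per cell cannot be told apart.

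Recovered reads ran from 11923843 to 20453485 in the 7 libraries, where 3 reads, the floor under which folds are left out, were worth 0.140 to 0.248 CPM, the unit of the deposited table (reads divided by scaled library sizes). Hoxa2, the homeobox gene that sets PA2 identity, lay between 33.0 and 63.3 CPM in all 7 libraries and between 0.0520 and 0.926 CPM in wildtype PA1 of the same stages. It was not lower in PA2 labelled Hoxa2-/- (48.6 to 147 CPM), so that group is named by its label only. The arch mesenchyme genes Prrx1, Twist1 and Dlx2 were present in all 7 libraries, at no less than 53.5, 36.4 and 62.8 CPM. A division that is not in the labels separated libraries across the series. The corepressor gene Ski was at 26.3 to 108 CPM in the 24 wildtype libraries outside E10.0 but at 9.52 to 15.5 CPM in the 10 of E10.0 and at 9.28 to 22.8 CPM in the 34 labelled Hoxa2-/-. All 7 libraries lie on the same side of it, although Ski itself was lower at E10.5 (log2 difference -1.14 ± 0.21 (SE), adjusted p = 2.07e-05). Among the E9.5 libraries, replicate 3 held the most cardiac and smooth muscle RNA, replicate 5 had the highest level of several genes that were higher at E10.5, and replicate 2 held the most globin RNA. Replicate 2 of each stage was the library with high Y-linked RNA.

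In all, 6326 of 18428 genes tested (34.3%) differed between the stages in the limma fit at an adjusted p under 0.05, of which 2961 (16.1%) were higher and 3365 (18.3%) lower at E10.5. With scaling by the column total alone the split turned, to 3314 higher and 3105 lower. Most of the differences were small. Called genes differed by a median of 0.57 in absolute value on the log2(CPM + 1) scale, 2480 of them were under 0.5, and 1070 (5.81% of genes tested) exceeded 1, with 431 higher (2.34%) and 639 lower (3.47%). In 5803 of the 6326 called genes (91.7%) the values of both stages did not overlap, against 7674 of all genes tested (41.6%). The count ran from 4977 without E10.5 replicate 1 to 6016 without E9.5 replicate 2. The median log2 difference of all genes was -0.01. Counts of list members in wildtype PA2 below are to be read beside the 16.1% higher and 18.3% lower of all genes.

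**Figure D1:**
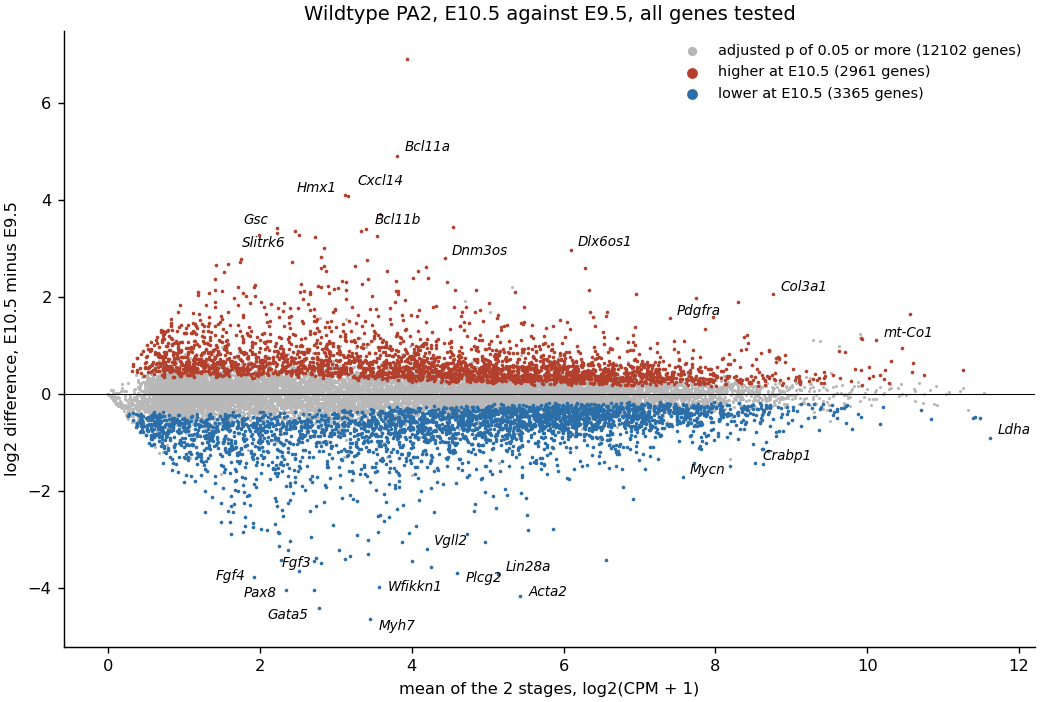
Each point is 1 of 18428 genes, with the mean of both stages in log2(CPM + 1) on the x axis and the log2 difference, E10.5 minus E9.5, in wildtype PA2 on the y axis. Colored points passed an adjusted p of 0.05 (2961 higher, 3365 lower); Bcl11a and Hmx1 stand at the top and Myh7 and Gata5 at the bottom among the labelled genes.

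The 15 largest rises among named genes with a mean of at least 5 CPM at a stage and no overlap between the stages were led by Bcl11a and Hmx1. The lack of overlap in these 15 was set by the choice and is no separate support. All values below are given in the order of replicates 1, 2, 3 and 5 at E9.5 and 1, 2 and 3 at E10.5. Bcl11a (chr11:24078056-24174123, plus strand, mm10), which encodes a zinc finger repressor known from blood and neuron development, was at 0.654, 0.414, 0.813 and 5.55 CPM at E9.5 and 72.2, 73.3 and 57.9 CPM at E10.5. It was low in every E9.5 library and highest there in replicate 5 (log2 difference 4.90 ± 0.50 (SE), adjusted p = 2.98e-11, 36.5-fold by the group means and 108-fold without replicate 5). Its relative Bcl11b was at 1.26, 1.74, 1.52 and 4.92 CPM at E9.5 and 27.6, 36.9 and 31.4 CPM at E10.5, again with E9.5 replicate 5 highest (log2 difference 3.40 ± 0.42 (SE), adjusted p = 5.6e-09). Slitrk6, which encodes a synaptic adhesion protein of the inner ear and of nerve endings, was at 0.84, 0.248, 0.406 and 1.4 CPM at E9.5 and 18.8, 18.8 and 11.9 CPM at E10.5. All 3 E10.5 libraries lay far above every E9.5 library (log2 difference 3.36 ± 0.39 (SE), adjusted p = 8.14e-10). Of the 7 tested Bcl11 and Slitrk genes, 4 rose and none fell, with Slitrk5 (0.87) as the fourth, a call lost without E10.5 replicate 2 (adjusted p = 0.0554). The list was chosen around these genes, so its count describes them and is not independent evidence.

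Hmx1 (chr5:35389108-35399730, plus strand), a homeobox gene of the embryonic ear, eye and cranial ganglia, was at 0.934, 0.248, 0.102 and 3.99 CPM at E9.5 and 32.3, 33.7 and 29.2 CPM at E10.5. It was low in 3 of the 4 E9.5 libraries, with replicate 5 highest, and close together at E10.5 (log2 difference 4.10 ± 0.39 (SE), adjusted p = 2.85e-12). Cxcl14 (chr13:56288643-56296551, minus strand), a chemokine gene, was at 0.981, 1.32, 1.07 and 1.19 CPM at E9.5 and 27.5, 49.4 and 32 CPM at E10.5. Its E9.5 libraries were close together (log2 difference 4.08 ± 0.40 (SE), adjusted p = 1.27e-11, 31.8-fold). Gsc, the goosecoid homeobox gene required for the middle ear and jaw skeleton, was at 0.327, 0.496, 0 and 0.933 CPM at E9.5 and 12.6, 15.9 and 13.9 CPM at E10.5 (log2 difference 3.43 ± 0.31 (SE), adjusted p = 8.33e-13). Emx2, a homeobox gene needed for ear ossicles, was at 2.99, 1.74, 1.52 and 5.29 CPM at E9.5 and 30.7, 35.7 and 34.8 CPM at E10.5 (log2 difference 3.26 ± 0.40 (SE), adjusted p = 5.37e-09). Emx2 overlaps Emx2os on the other strand, and whether reads were counted by strand is not given in the sources used here. Pcdh10, a protocadherin gene, was at or under 0.356 CPM in every E9.5 library and at 8.33, 14.5 and 11.4 CPM at E10.5 (log2 difference 3.28 ± 0.26 (SE), adjusted p = 7.88e-15). Foxd1, a forkhead gene of facial and kidney stroma, was at 1.17, 0.0827, 0.559 and 5.6 CPM at E9.5 and 16.3, 19.9 and 14.7 CPM at E10.5, with E9.5 replicate 5 between the groups (log2 difference 3.01 ± 0.47 (SE), adjusted p = 1.13e-06). Col8a2, a short-chain collagen gene, was at 2.61, 0.91, 2.184 and 2.9 CPM at E9.5 and 23.9, 42.8 and 27 CPM at E10.5 (log2 difference 3.36 ± 0.49 (SE), adjusted p = 2.64e-07).

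Several of the 15 were long noncoding transcripts. Dlx6os1 (chr6:6820189-6871592, minus strand), which runs antisense through the Dlx5 and Dlx6 locus, was at 27.6, 26.8, 6.91 and 39.7 CPM at E9.5 and 164, 176 and 189 CPM at E10.5. Its lowest E9.5 value was that of replicate 3 (log2 difference 2.98 ± 0.44 (SE), adjusted p = 3.42e-07). Dlx4os was at 3.41, 0.662, 0.254 and 6.74 CPM at E9.5 and 40.9, 34.5 and 36.4 CPM at E10.5 (log2 difference 3.72 ± 0.47 (SE), adjusted p = 1.29e-08). Dlx4, which it overlaps, was at 2.85, 1.08, 0.711 and 5.24 CPM at E9.5 and 12.7, 12.5 and 13.5 CPM at E10.5 (log2 difference 2.20 ± 0.38 (SE), adjusted p = 6.51e-06), and without stranded counts the reads of such pairs cannot be told apart. Pantr1, a noncoding gene beside Pou3f3, was at 0.887, 0.744, 0.203 and 0.778 CPM at E9.5 and 4.55, 26.7 and 24.7 CPM at E10.5, with E10.5 replicate 1 well below the others (log2 difference 3.28 ± 0.38 (SE), adjusted p = 1.38e-09). Rpl19-ps3, listed as a transcribed processed pseudogene, was at 0.887, 0.248, 0.203 and 0.259 CPM at E9.5 and 21.5, 17.1 and 5.43 CPM at E10.5 (log2 difference 3.33 ± 0.46 (SE), adjusted p = 8.33e-08); its reads may be shared with near-identical Rpl19 sequence. Outside the naming rule, and chosen after its values were seen, the noncoding gene 3110099E03Rik (chr2:115493513-115527744, minus strand) went from 0.233, 0.165, 0.0508 and 1.30 CPM to 162, 176 and 150 CPM (log2 difference 6.90 ± 0.32, SE; adjusted p = 4.71e-25).

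Dnm3os (chr1:162217623-162225550, plus strand) is the host transcript of the miR-199a and miR-214 hairpins, which mark embryonic mesenchyme. It was at 5.37, 4.8, 6.15 and 11.6 CPM at E9.5 and 63.8, 81.8 and 26.4 CPM at E10.5. The lowest E10.5 library was above the highest E9.5 library, which the choice of the largest rises required (log2 difference 2.80 ± 0.37 (SE), adjusted p = 3.28e-08). The mature sequences are shown because the transcript carries them. They are from RefSeq (GRCm38.p6, plus strand of chromosome 1), with the seed, bases 2 to 8, in capitals. Of these only the host was measured here, it overlaps Dnm3 on the other strand, and no 2 of the 4 seeds are the same.
mmu-miR-199a-5p: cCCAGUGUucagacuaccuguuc
mmu-miR-199a-3p: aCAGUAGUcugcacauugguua
mmu-miR-214-5p: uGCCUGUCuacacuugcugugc
mmu-miR-214-3p: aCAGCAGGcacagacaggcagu

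**Figure D2:**
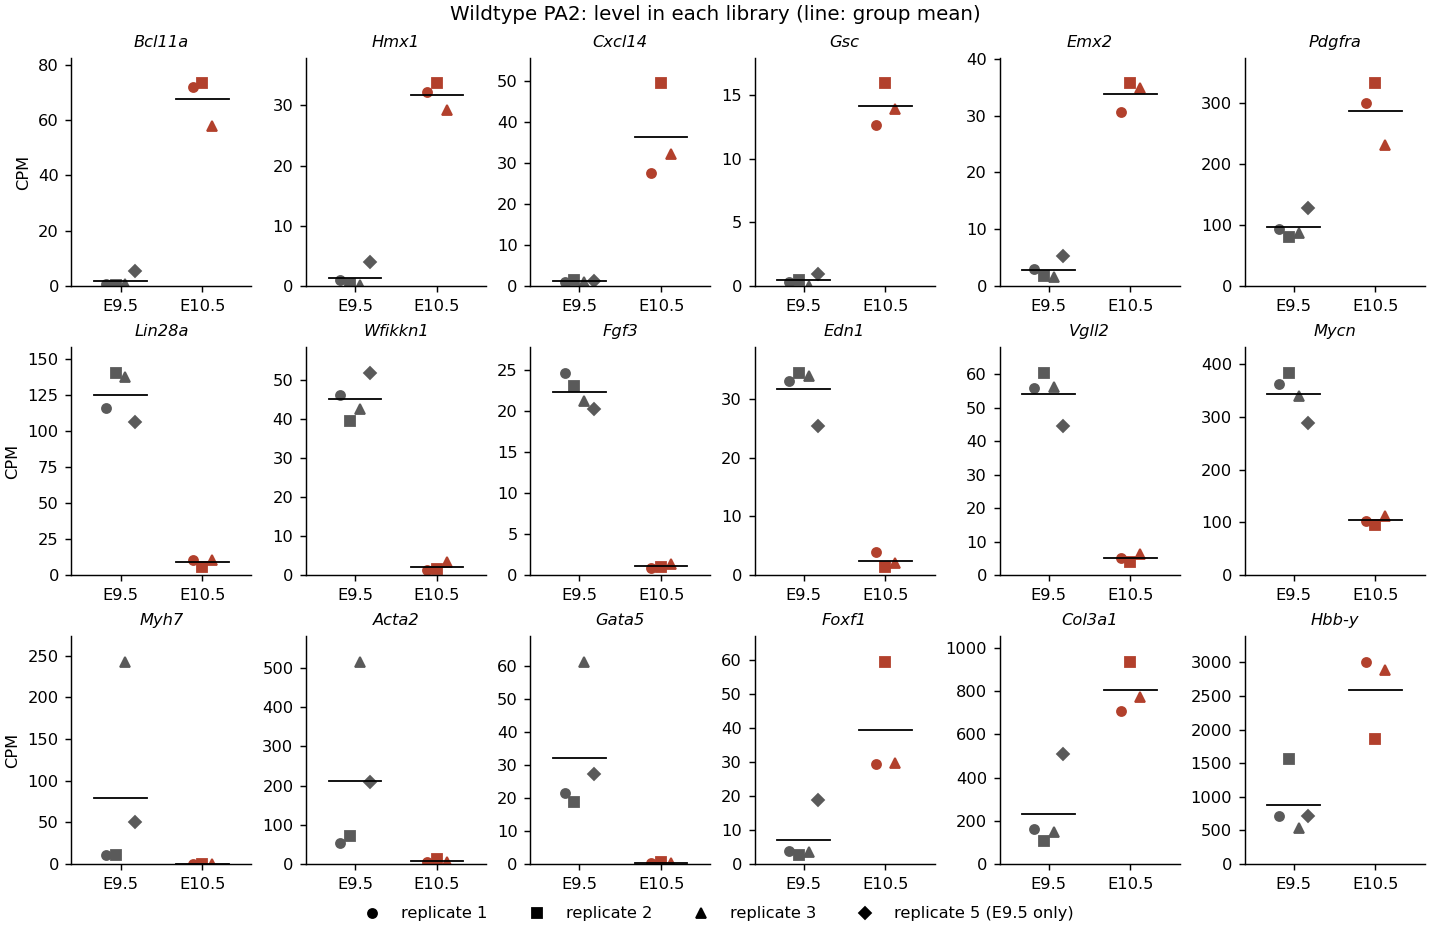
Each panel plots the CPM of 1 gene in the 7 wildtype PA2 libraries on a linear axis from 0, with E9.5 in grey, E10.5 in red, a marker shape per replicate number and a line at each group mean. The top row rose at E10.5 and the middle row fell, with no overlap; in the bottom row E9.5 replicate 3 is far above the others for Myh7 and Acta2, and replicate 5 for Foxf1 and Col3a1.

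The 15 largest falls were chosen by the same rule, which required that the stages not overlap. Lin28a (chr4:134003330-134018841, minus strand), which encodes an RNA-binding protein that blocks let-7 processing in young embryos, was at 116, 141, 137 and 107 CPM at E9.5 and 10.3, 5.64 and 10.6 CPM at E10.5. Its level was high in all E9.5 libraries and low in all E10.5 libraries (log2 difference -3.72 ± 0.26 (SE), adjusted p = 1.16e-16, 14.2-fold lower). Wfikkn1, which encodes a protein that binds myostatin and GDF11, was at 46.2, 39.5, 42.8 and 52 CPM at E9.5 and 1.24, 1.48 and 3.38 CPM at E10.5 (log2 difference -3.99 ± 0.33 (SE), adjusted p = 2.12e-14, 22.2-fold lower). Plcg2, a phospholipase C gene best known from blood cells, was at 84, 89.7, 123 and 54.2 CPM at E9.5 and 5.74, 5.95 and 5.04 CPM at E10.5 (log2 difference -3.70 ± 0.33 (SE), adjusted p = 6.08e-13). Car4, a membrane-bound carbonic anhydrase gene, was at 17.8, 10.6, 19.7 and 12.3 CPM at E9.5 and 0.569, 0.316 and 0.499 CPM at E10.5 (log2 difference -3.42 ± 0.46 (SE), adjusted p = 5.44e-08). Pax8, a paired-box gene of the otic and epibranchial placodes, was at 17.8, 14.5, 27 and 19.3 CPM at E9.5 and 0.31, 0.0527 and 0.333 CPM at E10.5, so that 1 E10.5 library was under the 3-read floor (log2 difference -4.04 ± 0.59 (SE), adjusted p = 2.77e-07). The others were Fgf3, Fgf4, Gata5, Myh7, Acta2, Tnni1 and Actc1, and the muscle genes Unc45b (-4.04), Tnnt2 (-3.65) and Myh6 (-3.44).

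Most timing genes fell. Of 14 tested, 11 were lower at E10.5 and 1 was higher (median -0.60). Trim71, which encodes a let-7 target that keeps cells undifferentiated, was at 60.9, 65.2, 63.5 and 66.7 CPM at E9.5 and 11.9, 9.8 and 11.9 CPM at E10.5, with little spread within each stage (log2 difference -2.42 ± 0.19 (SE), adjusted p = 6.28e-15). Mycn, the N-Myc gene, was at 363, 385, 340.4 and 288 CPM at E9.5 and 103, 95.1 and 113 CPM at E10.5 (log2 difference -1.72 ± 0.18 (SE), adjusted p = 4.2e-11). Igf2bp1, the mRNA-binding protein gene, overlapped between stages because E9.5 replicate 2 was at 82.1 CPM and E10.5 replicate 2 at 127 CPM (log2 difference -1.36 ± 0.47 (SE), adjusted p = 0.0212), and its call was lost without E9.5 replicate 1, 3 or 5 or E10.5 replicate 1 or 3 (adjusted p = 0.0523 to 0.132). Lin28b (-0.55), Dnmt3b (-1.22), Arid3a (-0.96), Hmga1 (-0.61), Igf2bp2 (-0.57), Igf2bp3 (-0.42) and L1td1 (-0.59) were also lower in log2 difference. Of these, the call of Lin28b was lost without E9.5 replicate 2 or 5 or E10.5 replicate 2 or 3 (adjusted p = 0.0778 to 0.143) and that of L1td1 without E10.5 replicate 2 (adjusted p = 0.0735). Hmga2, a chromatin gene that let-7 represses elsewhere, was the exception and was higher at E10.5 (101, 121, 108 and 104 CPM at E9.5 and 144, 196 and 144 CPM at E10.5; log2 difference 0.56). This call was lost without E10.5 replicate 2 (adjusted p = 0.156).

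Dorsoventral patterning of the arch rests on endothelin 1 from epithelium and mesoderm, its receptor on crest cells, and nested Dlx genes below them. The ligand gene fell and the receptor gene rose. Edn1 was at 33.2, 34.6, 33.9 and 25.5 CPM at E9.5 and 3.93, 1.37 and 2.11 CPM at E10.5, lowest at E9.5 in replicate 5 (log2 difference -3.30 ± 0.28 (SE), adjusted p = 5.87e-14, 12.9-fold lower). Ednra, its receptor gene, was at 41.6, 39.5, 59.1 and 43.5 CPM at E9.5 and 89.7, 90.3 and 62.3 CPM at E10.5, with the E10.5 libraries above all E9.5 libraries (log2 difference 0.80 ± 0.19 (SE), adjusted p = 0.000861). Mef2c (-1.66), a mediator of the signal in crest cells, and Jag1 (-1.70), the Notch ligand of the dorsal arch, fell too. Of the 20 genes of this list 11 rose, 3 fell and 6 did not pass the test (median 0.73). Among the Dlx genes Dlx1 (0.78), Dlx3 (0.98), Dlx4 (2.20) and Dlx6 (0.68) rose. The call of Dlx3 was lost without E9.5 replicate 3 or E10.5 replicate 1 or 3 (adjusted p = 0.0951 to 0.224) and that of Dlx6 without E9.5 replicate 3 or 5 or E10.5 replicate 2 or 3 (adjusted p = 0.0959 to 0.143). Dlx2 (adjusted p = 0.485) and Dlx5 (adjusted p = 0.476) did not pass. Dlx2 was at 82.9, 79.2, 87.1 and 77.5 CPM at E9.5 and 67.4, 62.8 and 82.5 CPM at E10.5, and the groups overlapped. Hand2, the ventral factor below endothelin, was at 7.75, 5.54, 9.6 and 9.85 CPM at E9.5 and 10.7, 9.96 and 11.2 CPM at E10.5, a difference that did not pass (adjusted p = 0.391). The dorsal factor genes Pou3f3 (1.75) and Nr2f1 (0.92), and Nkx3-2 (1.55), the joint factor gene, were higher at E10.5.

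Of the 7 tested Hox genes and antisense transcripts 2 rose and 2 fell. With single libraries left out, 1 or 2 rose and 1 to 3 fell. Hoxa2 was at 42.3, 49.2, 33 and 38.5 CPM at E9.5 and 57.2, 63.3 and 54.5 CPM at E10.5, a rise without overlap (log2 difference 0.52 ± 0.19 (SE), adjusted p = 0.0288) that did not pass with a pseudocount of 0.25 or in edgeR, nor without E9.5 replicate 3 or 5 or E10.5 replicate 1 or 2 (adjusted p = 0.0576 to 0.109). Hoxaas2, which overlaps Hoxa3 on the other strand, was at 8.08, 7.2, 7.21 and 9.8 CPM at E9.5 and 18.1, 25.3 and 18.6 CPM at E10.5 (log2 difference 1.25 ± 0.17 (SE), adjusted p = 6.82e-08). The Hoxb genes went the other way, with Hoxb2 at 5.51, 4.22, 5.49 and 5.24 CPM at E9.5 and 1.81, 3.48 and 3.33 CPM at E10.5 (log2 difference -0.68) and Hoxb1 at a log2 difference of -0.87. The call of Hoxb2 was lost without E10.5 replicate 1 (adjusted p = 0.0602) and that of Hoxb1 without E9.5 replicate 3 or E10.5 replicate 3 (adjusted p = 0.0653 to 0.0824). The TALE homeobox proteins bind DNA together with Hox proteins. Meis1 was at 151, 155, 165 and 164 CPM at E9.5 and 273, 265 and 263 CPM at E10.5, a rise (0.74) with little spread within a stage. Meis2 (0.29), Pbx3 (0.36) and Pknox1 (0.60) were also higher, and Meis3 (-0.76) and Pknox2 (-0.76) were lower.

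Among 28 other transcription factor genes of arch mesenchyme, most of them homeobox genes, 12 rose and 7 fell (median 0.36). Prrx1, a crest mesenchyme factor, was at 65.3, 67.6, 53.5 and 69.2 CPM at E9.5 and 137, 132 and 121 CPM at E10.5, and its paralog Prrx2 was at 148, 153, 162 and 114 CPM at E9.5 and 66.8, 65.2 and 71.8 CPM at E10.5, so that the pair moved in opposite directions (1.02 and -1.06). Osr1 (2.59), a zinc finger gene of connective tissue progenitors, and the homeobox genes Zfhx4 (2.31) and Meox2 (1.50) rose. Msx2, a BMP-responsive homeobox gene, was at 97.4, 99.2, 108 and 67.9 CPM at E9.5 and 26.8, 14.4 and 20.8 CPM at E10.5 (log2 difference -2.14 ± 0.22 (SE), adjusted p = 2.54e-11), while Msx1 was at 150.1, 129, 95.8 and 127 CPM at E9.5 and 132, 102 and 142 CPM at E10.5, with overlapping groups (adjusted p = 0.993). Irx3, an Iroquois gene, was at 14.2, 12.2, 14.9 and 12 CPM at E9.5 and 2.69, 2.79 and 2.77 CPM at E10.5 (log2 difference -1.93 ± 0.25 (SE), adjusted p = 1.71e-08).

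Genes of skeletal and connective tissue fate rose more often than they fell: 12 rose and 4 fell of 23 tested (median 0.59). Only 2 fell without E9.5 replicate 2 or 3 or E10.5 replicate 1. Without E10.5 replicate 2, 8 rose and 4 fell. Sox9, the cartilage master regulator gene, was at 68.2, 78.7, 60.4 and 78 CPM at E9.5 and 103, 118 and 101 CPM at E10.5 (log2 difference 0.59 ± 0.21 (SE), adjusted p = 0.0227), a call lost without E9.5 replicate 3 or E10.5 replicate 2 (adjusted p = 0.0758 to 0.0962). Col9a1, a cartilage collagen gene that is a target of SOX9 in other tissues, was at 47.8, 44.4, 55.3 and 93.6 CPM at E9.5 and 206, 310.3 and 226 CPM at E10.5, highest at E9.5 in replicate 5 (log2 difference 2.06 ± 0.24 (SE), adjusted p = 1.96e-09). Scx, the tendon factor gene, was at 4.72, 3.23, 4.22 and 3.68 CPM at E9.5 and 16, 18.1 and 14.6 CPM at E10.5 (log2 difference 1.80 ± 0.25 (SE), adjusted p = 1.06e-07). Runx1 was at 1.77, 1.82, 1.12 and 2.38 CPM at E9.5 and 14.2, 9.11 and 9.54 CPM at E10.5 (adjusted p = 1.17e-08). Nfib (1.79), Bmpr1b (1.50) and Gdf5 (1.47), a joint ligand gene, were higher as well. Runx2, the bone master gene, stayed at no more than 1.53 CPM in any of the 7 libraries (adjusted p = 0.432), and Col2a1, the main cartilage collagen gene, was at 283, 247, 311 and 397 CPM at E9.5 and 311, 349 and 357 CPM at E10.5, without a detectable difference (adjusted p = 0.635). Matn4 (-1.57) and Hapln1 (-1.17), cartilage matrix genes, fell.

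Of the 15 PDGF and IGF genes 3 rose and 3 fell, so that 40% were called, beside 34.3% of all genes. Pdgfra, the PDGF receptor gene that marks arch mesenchyme, was at 94, 80.3, 86.9 and 128 CPM at E9.5 and 299, 332 and 231 CPM at E10.5 (log2 difference 1.56 ± 0.19 (SE), adjusted p = 3.21e-09). Its ligand gene Pdgfc was at 51.4, 53.3, 40.8 and 62.7 CPM at E9.5 and 152, 185 and 172 CPM at E10.5 (log2 difference 1.70 ± 0.21 (SE), adjusted p = 7.99e-09). Igf1 was at 18.1, 16.5, 14.2 and 29.9 CPM at E9.5 and 59.4, 53.3 and 60.8 CPM at E10.5 (log2 difference 1.56 ± 0.22 (SE), adjusted p = 8.44e-08). In all 3, each E10.5 library exceeded each E9.5 library. Of the 15 genes, 3 were higher and 4 lower without overlap, beside 19.4% and 22.3% of all genes. Igf2r, which clears IGF2, fell (-1.14), and Pdgfrb was without a detectable difference (adjusted p = 0.97).

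Of 35 collagen genes 5 rose and 8 fell, which at 37.1% called is near the 34.3% of all genes. The 8 that fell, 5 without E10.5 replicate 3, include 5 genes of basement membrane collagens. Col3a1, a fibrillar collagen gene of soft connective tissue, was at 162, 108, 149.9 and 508 CPM at E9.5 and 707, 936 and 772 CPM at E10.5, with E9.5 replicate 5 well above its group (log2 difference 2.06 ± 0.43 (SE), adjusted p = 0.000161). Col6a3 rose by 2.01 on the log2 scale. Of the basement membrane collagens Col4a6 was at 13, 15.9, 21.6 and 16.7 CPM at E9.5 and 1.34, 1.63 and 0.887 CPM at E10.5 (log2 difference -2.95 ± 0.37 (SE), adjusted p = 9.43e-09), and Col4a1 (-0.97), Col4a2 (-1.20), Col4a5 (-0.98) and Col18a1 (-0.99) were lower as well. The call of Col4a5 was lost without E9.5 replicate 3 or 5 or E10.5 replicate 1, 2 or 3 (adjusted p = 0.0503 to 0.0873). Col4a3 did not pass (adjusted p = 0.36), nor did the bone and skin collagen gene Col1a1 (44, 21.7, 73.3 and 72.8 CPM at E9.5 and 33.5, 45.4 and 40.4 CPM at E10.5; adjusted p = 0.856). Of 49 matrix glycoprotein genes 11 rose and 20 fell. Among those, Fn1, the fibronectin gene, was at 571, 579, 782 and 659 CPM at E9.5 and 209.7, 284 and 222 CPM at E10.5 (log2 difference -1.44 ± 0.32 (SE), adjusted p = 0.000361). Tnc, the tenascin C gene, was at 58.7, 42.3, 141 and 51.8 CPM at E9.5 and 5.74, 11.7 and 7.48 CPM at E10.5, with E9.5 replicate 3 highest (log2 difference -2.88 ± 0.60 (SE), adjusted p = 0.000127). The elastic fiber gene Mfap4 was at 53.7, 45.2, 46.5 and 66.8 CPM at E9.5 and 139.7, 186 and 165 CPM at E10.5 (log2 difference 1.61 ± 0.20 (SE), adjusted p = 9.77e-09). Cadherin and protocadherin genes were near balance, with 10 higher and 9 lower of 27, or 70.4% called. They were led by Pcdh10 and Pcdh9 (2.71) upward and Pcdh1 (-1.73) and Cdh19 (-1.69), the Schwann precursor cadherin gene, downward. Protease and inhibitor genes gave 10 higher and 8 lower of 33, or 54.5% called. Only 6 and 5 were higher without E9.5 and E10.5 replicate 2, and 5 and 4 lower without E9.5 replicate 5 and E10.5 replicate 3.

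Contractile genes of the heart were lower at E10.5 in 15 of 18 tested, and none was higher (median -2.77). The arches lie beside the outflow tract, which grows from the second heart field, and the level of these genes varied more within E9.5 than that of any other list. The sum of the list was 78.3, 96.9, 1254 and 294 CPM at E9.5 and 10.6, 13.6 and 10.53 CPM at E10.5, so every E9.5 library exceeded every E10.5 library, while replicate 3 was far above the rest of its group. Myh7, a heavy chain gene, was at 10.7, 11.2, 243 and 50.9 CPM at E9.5 and 0.414, 0.632 and 0.388 CPM at E10.5 (log2 difference -4.63 ± 0.91 (SE), adjusted p = 5.51e-05, 165-fold lower by the group means and 50.7-fold without replicate 3). Tnni1, a troponin gene, was at 29.2, 29.9, 131 and 41.2 CPM at E9.5 and 3.52, 2.79 and 3.83 CPM at E10.5 (log2 difference -3.45 ± 0.71 (SE), adjusted p = 0.000126). Actc1, the cardiac actin gene, was at 9.2, 12.9, 287 and 71.3 CPM at E9.5 and 1.24, 4.9 and 2.16 CPM at E10.5 (log2 difference -3.58 ± 1.07 (SE), adjusted p = 0.00718), and without E9.5 replicate 3 its call was lost (log2 difference -2.65, adjusted p = 0.0640). Without that library 10 of the 18 genes were lower (median -2.01). Whether the dissections took different amounts of neighbouring tissue was not tested.

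Second heart field and outflow genes were lower as well. Of 15 tested, 13 were lower and none higher (median -1.62), and the sum of the list was 389, 418, 660 and 409 CPM at E9.5 and 197, 183 and 185 CPM at E10.5. Gata5 was at 21.4, 18.7, 61.3 and 27.3 CPM at E9.5 and 0.207, 0.685 and 0.333 CPM at E10.5, high in every E9.5 library and highest in replicate 3 (log2 difference -4.41 ± 0.63 (SE), adjusted p = 1.47e-07, 78.8-fold lower by the group means and 119-fold without E10.5 replicate 2). Gata6 was at 10.4, 7.94, 25.2 and 17.9 CPM at E9.5 and 0.673, 0.948 and 0.277 CPM at E10.5 (log2 difference -3.22 ± 0.63 (SE), adjusted p = 5.89e-05). Tbx1, the T-box gene of pharyngeal mesoderm and endoderm, was at 62.9, 60, 72.1 and 50.9 CPM at E9.5 and 10.4, 13 and 12.4 CPM at E10.5 (log2 difference -2.27 ± 0.29 (SE), adjusted p = 1.36e-08). Isl1, which marks progenitors of the field, was at 72, 80.1, 119 and 93.2 CPM at E9.5 and 67.4, 52.3 and 67 CPM at E10.5 (log2 difference -0.53 ± 0.19 (SE), adjusted p = 0.0262), a call lost without E9.5 replicate 3 or 5 or E10.5 replicate 2 (adjusted p = 0.052 to 0.153). Without E9.5 replicate 3, 9 of the 15 were lower (median -1.16). Smooth muscle genes gave 5 lower and 1 higher of 12 (none higher without E10.5 replicate 2 or 3), with Acta2 at 54.1, 71, 516 and 210.3 CPM at E9.5 and 5.07, 12.2 and 5.49 CPM at E10.5 (log2 difference -4.17 ± 0.97 (SE), adjusted p = 0.000595). The sum of their list was 259, 261, 873 and 532 CPM at E9.5 and 169, 217 and 175 CPM at E10.5.

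Most measured genes of the pharyngeal endoderm, which lines the pouches between the arches, fell. Of 22 tested, 15 were lower and none higher (median -1.60). Without E9.5 replicate 3, 14 were lower, and 1 was higher without E9.5 replicate 5 or E10.5 replicate 3. Pax1, the pouch marker, was at 69.9, 74, 71.4 and 74.2 CPM at E9.5 and 16.9, 14.4 and 23 CPM at E10.5, with little spread at E9.5 (log2 difference -1.97 ± 0.31 (SE), adjusted p = 1.1e-06). Nkx2-6 was at 40.3, 41.2, 46.7 and 28.1 CPM at E9.5 and 3.78, 2.32 and 9.04 CPM at E10.5 (log2 difference -2.86 ± 0.34 (SE), adjusted p = 2.52e-09). Otx2 at 10.1, 13.2, 11.9 and 7.36 CPM at E9.5 and 0.673, 0.421 and 1.33 CPM at E10.5 (log2 difference -2.69 ± 0.28 (SE), adjusted p = 3.82e-11). Pax9, which marks the same pouches, was at 7.56, 7.11, 8.08 and 10.4 CPM at E9.5 and 7.35, 9.59 and 6.87 CPM at E10.5, with overlapping groups (adjusted p = 0.87). Shh, Foxa1 and Foxa2, which endoderm also expresses, did not pass either (adjusted p = 0.52, 0.901 and 0.0977), although Foxa2 did, as higher, without E9.5 replicate 5 or E10.5 replicate 3 (adjusted p = 0.0139 to 0.0374). Otic and epibranchial placode genes gave 9 lower and none higher of 15. Foxi2, a gene of the ectoderm around the placodes, was at 74.9, 74.1, 76.9 and 77.2 CPM at E9.5 and 13.8, 10.4 and 19.1 CPM at E10.5 (log2 difference -2.35 ± 0.34 (SE), adjusted p = 1.82e-07). Sox2 was at 13.9, 15.9, 15.4 and 19.4 CPM at E9.5 and 4.55, 4.32 and 3.22 CPM at E10.5 (log2 difference -1.77 ± 0.18 (SE), adjusted p = 2.4e-11).

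Several FGF ligand genes, some of them known from these epithelia, fell as well. Fgf3 (chr7:144838083-144844436, plus strand) was at 24.7, 23.1, 21.3 and 20.2 CPM at E9.5 and 0.879, 1 and 1.33 CPM at E10.5 (log2 difference -3.50 ± 0.32 (SE), adjusted p = 8.33e-13, 20.9-fold lower). The neighbouring gene Fgf4 (chr7:144847367-144865243, plus strand) was at 10.9, 13.7, 16.2 and 11.4 CPM at E9.5 and 0, 0 and 0.0554 CPM at E10.5, so all E10.5 libraries were under the 3-read floor (log2 difference -3.77 ± 0.35 (SE), adjusted p = 1.52e-12; with such low values the log2 difference depends on the pseudocount). Fgf8 was at 20.8, 21.3, 17.9 and 10.3 CPM at E9.5 and 5.9, 3.53 and 4.99 CPM at E10.5 (log2 difference -1.65 ± 0.23 (SE), adjusted p = 7.56e-08). Fgf10 (-0.67), a ligand of mesoderm, Fgf1 (-0.67), Fgf13 (-0.45) and Fgf18 (-0.82) were lower too, and Fgf9, Fgf15 and Fgf17 did not pass. The call of Fgf1 was lost without E9.5 replicate 2, 3 or 5 or E10.5 replicate 1 or 2 (adjusted p = 0.0629 to 0.172) and that of Fgf13 without E10.5 replicate 2 (adjusted p = 0.0516). Most of the listed genes that FGF signalling induces fell too. Spry1 was at 119, 118, 134 and 109 CPM at E9.5 and 36, 35.6 and 34.4 CPM at E10.5 (log2 difference -1.73 ± 0.23 (SE), adjusted p = 4.15e-08) and Etv5 at 136, 159.7, 187 and 117 CPM at E9.5 and 58, 58.7 and 49.6 CPM at E10.5 (log2 difference -1.40 ± 0.20 (SE), adjusted p = 2.12e-07). Spry2 (-0.87), Spry4 (-1.22), Spred1 (-0.81), Spred2 (-0.52) and Dusp6 (-0.59) also fell, with the call of Spred2 lost without E9.5 replicate 2, 3 or 5 or E10.5 replicate 1, 2 or 3 (adjusted p = 0.0548 to 0.149). Etv4 (13.1, 17.1, 18.2 and 12.2 CPM at E9.5 and 12.3, 15.2 and 15.5 CPM at E10.5; adjusted p = 0.848), Etv1 (adjusted p = 0.76) and Il17rd (adjusted p = 0.819) did not pass. Of the receptors Fgfr2 rose (0.68) and Fgfr1 was at 111, 94.5, 112 and 111 CPM at E9.5 and 109, 112 and 124 CPM at E10.5 (adjusted p = 0.592). The list of 28 genes had 14 lower and 1 higher.

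Surface epithelium genes moved in both directions, 10 higher and 13 lower of 28. Krt8, a keratin gene of simple epithelium, was at 179.5, 132, 259.6 and 182 CPM at E9.5 and 67.4, 56 and 63.5 CPM at E10.5 (log2 difference -1.54 ± 0.27 (SE), adjusted p = 9.46e-06), Krt18 fell by 1.91 on the log2 scale, and Epcam was at 158, 175, 154 and 143 CPM at E9.5 and 68.4, 62.7 and 76.4 CPM at E10.5 (log2 difference -1.18 ± 0.15 (SE), adjusted p = 5.77e-09). Of the genes that rose, Sfn, which encodes stratifin, was at 5.51, 5.87, 4.17 and 7 CPM at E9.5 and 22.4, 31.6 and 29.4 CPM at E10.5 (log2 difference 2.12 ± 0.24 (SE), adjusted p = 9.12e-10). Krt5, the basal keratin gene, was at or under 0.508 CPM at E9.5 and at 3, 6.69 and 4.16 CPM at E10.5 (log2 difference 2.14 ± 0.23 (SE), adjusted p = 2.1e-10). Grhl3 (2.13), Krt15 (2.17), Perp (1.62) and Trp63 (0.69), the regulator of layered epithelium, were higher too, with the call of Trp63 lost without E9.5 replicate 3 or E10.5 replicate 1 or 2 (adjusted p = 0.057 to 0.128). Krt14, the basal keratin partner of Krt5, did not pass (0.45, adjusted p = 0.194), nor did Ovol1 (adjusted p = 0.273), and Grhl1 was lower (-2.02). Cdh1, the pan-epithelial cadherin gene, was at 131, 109, 150.3 and 168 CPM at E9.5 and 101, 85 and 94.5 CPM at E10.5 and did not pass (adjusted p = 0.0532), although it was lower without E9.5 replicate 2 (adjusted p = 0.0288).

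Of 19 cranial mesoderm and myogenic genes 5 rose and 7 fell, or 63.2% called, beside 34.3% of all genes. Only 3 rose without E9.5 replicate 5 or E10.5 replicate 2. Vgll2, a cofactor gene of head muscle and arch epithelium, was at 55.7, 60.5, 56.2 and 44.4 CPM at E9.5 and 5.17, 3.74 and 6.32 CPM at E10.5 (log2 difference -3.20 ± 0.27 (SE), adjusted p = 1.14e-13, 10.7-fold lower). Tcf21, of branchiomeric muscle progenitors, fell (-0.84), a call lost without E9.5 replicate 3 (adjusted p = 0.058), and Msc, its partner, was without a detectable difference (adjusted p = 0.296). The myogenic determination genes Myod1 and Myf5 were low and rose. Myod1 was at or under 0.104 CPM in every E9.5 library, below the floor, and at 0.776, 3.37 and 1.16 CPM at E10.5 (log2 difference 1.29 ± 0.18 (SE), adjusted p = 1.17e-07). Myf5 was at 3.5, 5.29, 1.98 and 2.13 CPM at E9.5 and 4.66, 6.9 and 5.71 CPM at E10.5, with overlap between the groups (log2 difference 0.73 ± 0.24 (SE), adjusted p = 0.0121), and its call was lost without E9.5 replicate 3 or 5 or E10.5 replicate 2 (adjusted p = 0.0553 to 0.0793).

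Genes of migrating neural crest were mixed, with 3 higher and 5 lower of 14, or 57.1% called. Twist1 was at 51.9, 55.4, 43.8 and 36.4 CPM at E9.5 and 44.9, 56.6 and 41.6 CPM at E10.5 (adjusted p = 0.919). Tfap2b was at 6.82, 9.35, 9.45 and 8.5 CPM at E9.5 and 24.9, 22.7 and 20.6 CPM at E10.5 (log2 difference 1.32 ± 0.23 (SE), adjusted p = 8.11e-06), while Tfap2a was lower (-0.67). Of 8 glia and Schwann precursor genes 5 fell and 2 rose. Sox10, the marker of crest that has not become mesenchyme, was at 5.37, 7.69, 21.7 and 2.33 CPM at E9.5 and 1.09, 3.32 and 1.22 CPM at E10.5, with E9.5 replicate 3 highest and overlapping groups (log2 difference -1.57 ± 0.59 (SE), adjusted p = 0.0335). Its call was lost without E9.5 replicate 2 or 3 or E10.5 replicate 1 or 3 (adjusted p = 0.0576 to 0.19). Of the 8 genes only 2 were lower without E9.5 replicate 3, and 3 without E10.5 replicate 1 or 3. Neuronal genes gave 3 higher and 9 lower of 26, or 46.2% called, beside 34.3% of all genes. Only 4 were lower without E9.5 replicate 3, and 5 without E9.5 replicate 5 or E10.5 replicate 2. The receptor gene Ret was at 3.36, 4.71, 13.8 and 1.87 CPM at E9.5 and 0.621, 0.685 and 0.111 CPM at E10.5, again highest in replicate 3 (log2 difference -1.98 ± 0.34 (SE), adjusted p = 5.11e-06). Tubb3 was at 2.8, 2.48, 8.53 and 6.53 CPM at E9.5 and 12.9, 15.8 and 10.1 CPM at E10.5 (log2 difference 1.31 ± 0.39 (SE), adjusted p = 0.00663). Neurod1, a gene of epibranchial ganglion neurons, was at 0 in all E10.5 libraries and did not pass (adjusted p = 0.0828).

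Most endothelial genes fell and most macrophage genes rose. Of 31 endothelial genes 20 were lower and none higher (median -0.81; 1 higher without E9.5 replicate 5), and the sum of the list was 734 to 956 CPM at E9.5 and 521 to 556 CPM at E10.5. Flt1, the VEGF receptor 1 gene, was at 30.3, 26.6, 28.7 and 21.1 CPM at E9.5 and 9.31, 9.17 and 7.65 CPM at E10.5 (log2 difference -1.50 ± 0.23 (SE), adjusted p = 7.01e-07). Plvap, which encodes the protein of vessel fenestrae, was at 103, 81.8, 102 and 110.2 CPM at E9.5 and 33.4, 34.6 and 36.8 CPM at E10.5 (log2 difference -1.47 ± 0.27 (SE), adjusted p = 2.66e-05). Pecam1, a marker shared by all endothelium, was at 35.5, 26, 28.3 and 38.2 CPM at E9.5 and 31.2, 36.2 and 33.9 CPM at E10.5, with overlapping groups (adjusted p = 0.747), and Kdr did not pass (adjusted p = 0.0819). Of 22 macrophage genes 19 were higher and none lower (median 1.25; 1 lower without E9.5 replicate 2), and their sum was 27.7 to 35.8 CPM at E9.5 and 80.4 to 102 CPM at E10.5. Csf1r, the receptor gene that macrophages need, was at 0.187, 0.662, 0.152 and 1.14 CPM at E9.5 and 4.81, 6.16 and 6.76 CPM at E10.5 (log2 difference 2.21 ± 0.33 (SE), adjusted p = 5.13e-07). Adgre1, which encodes F4/80, was at 0 in all E9.5 libraries and at 0.828, 2.69 and 1.27 CPM at E10.5 (log2 difference 1.31 ± 0.20 (SE), adjusted p = 7.91e-07), and C1qa was also at 0 in all of them. Coro1a, a leukocyte actin regulator gene, was at 2.05, 2.65, 2.84 and 4.46 CPM at E9.5 and 16.3, 19.8 and 18.8 CPM at E10.5 (log2 difference 2.30 ± 0.24 (SE), adjusted p = 4.34e-11).

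Globin RNA varied among libraries of each stage. The red cell list summed to 2794 to 5965 CPM at E9.5 and to 5342 to 8734 CPM at E10.5. Of its 26 tested genes 3 rose and 1 fell, so that 15.4% were called, beside 34.3% of all genes. The number of calls changed when single libraries were left out. Only 1 gene rose without E9.5 replicate 1 or 3 or E10.5 replicate 1, and none without E10.5 replicate 3. None fell without E9.5 replicate 2 or 3 or any E10.5 library. Hbb-y, an embryonic globin gene, was at 721, 1564, 532 and 710.5 CPM at E9.5 and 3009, 1855 and 2878 CPM at E10.5, with replicate 2 highest at E9.5 and lowest at E10.5 (log2 difference 1.64 ± 0.60 (SE), adjusted p = 0.0285). Its call was lost without E9.5 replicate 1, 3 or 5 or E10.5 replicate 1 or 3 (adjusted p = 0.0552 to 0.0939). Hbb-bs, an adult-type gene with a near-identical copy, was at 78.3, 94.9, 113 and 60.5 CPM at E9.5 and 22.9, 14.4 and 23.6 CPM at E10.5 (log2 difference -2.03 ± 0.75 (SE), adjusted p = 0.0291), a call lost without E9.5 replicate 2 or 3 or E10.5 replicate 1, 2 or 3 (adjusted p = 0.0506 to 0.105). Reads can be split between such copies. Yolk sac and visceral endoderm genes, checked as a sign of attached membranes, gave 1 higher and none lower of 18, with Afp and Ttr at or under 0.165 CPM in all 7 libraries.

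Glycolysis genes that passed the test fell, and mitochondrially encoded genes rose. Of 31 glycolysis and hypoxia genes 14 were lower and none higher (median -0.45). Ldha, the lactate dehydrogenase A gene, was at 4405, 4774, 4794 and 3272 CPM at E9.5 and 2528, 1851 and 2549.7 CPM at E10.5 (log2 difference -0.90 ± 0.15 (SE), adjusted p = 4.06e-06). Pfkl, the liver-type phosphofructokinase gene, was at 596, 601, 724 and 562 CPM at E9.5 and 239, 276 and 311 CPM at E10.5 (log2 difference -1.17 ± 0.16 (SE), adjusted p = 9.31e-08). Slc2a3, a glucose transporter gene, was at 547, 435, 631 and 364 CPM at E9.5 and 186, 158 and 173 CPM at E10.5 (log2 difference -1.49 ± 0.28 (SE), adjusted p = 2.8e-05). In each of these every E9.5 library was above every E10.5 library. This held for 15 of the 31 genes, beside 22.3% of all genes. Slc2a1 (-0.96), Hk2 (-1.15), Slc16a3 (-1.47), the lactate exporter gene, Pdk1 (-0.60), which blocks pyruvate entry into mitochondria, and Vegfa (-0.79) were lower too.

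All 13 protein-coding genes of the mitochondrial genome were higher at E10.5 (median 0.88). mt-Co1, a subunit of cytochrome c oxidase, was at 734, 846, 651 and 792 CPM at E9.5 and 1676, 1634 and 1559.5 CPM at E10.5 (log2 difference 1.11 ± 0.14 (SE), adjusted p = 1.89e-08). mt-Co3 was at 650.2, 707, 564 and 663 CPM at E9.5 and 1504, 1489.5 and 1314 CPM at E10.5 (log2 difference 1.15 ± 0.18 (SE), adjusted p = 9.51e-07). They were 2.15-fold and 2.22-fold higher by the group means, with little spread within a stage. Of 77 nuclear genes of oxidative phosphorylation 55 were higher and 2 lower (median 0.38). With single libraries left out, 45 (without E10.5 replicate 3) to 55 were higher. None was lower without E9.5 replicate 1 or E10.5 replicate 2, and 1 was lower without E10.5 replicate 1. The nuclear genes were led by Ndufs8, at 64.8, 59.9, 53.6 and 60.1 CPM at E9.5 and 111, 124 and 118 CPM at E10.5 (log2 difference 0.97 ± 0.12 (SE), adjusted p = 3.8e-09). The NRF1 binding motif, searched on both strands of the 250 bases before each gene's start, was in 13 of 62 of these genes with such a sequence (21.0%). It was in 10 of 45 that rose and 3 of 17 that did not, and in 978 of 11361 genes (8.61%). Cytosolic ribosomal protein genes, by contrast, gave 2 higher and none lower of 86 (median 0.09), with none higher without E9.5 replicate 3 or 5 or E10.5 replicate 2 or 3 and 1 without E10.5 replicate 1.

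Most cholesterol synthesis genes rose: 15 of 23 were higher and none lower (median 0.69). With single libraries left out, 12 (without E10.5 replicate 1) to 15 were higher. Hmgcs1, which encodes the synthase at the pathway's entry, was at 136, 155, 178 and 133 CPM at E9.5 and 293, 329 and 233 CPM at E10.5 (log2 difference 0.92 ± 0.21 (SE), adjusted p = 0.000528). Msmo1, a sterol demethylation enzyme gene, was at 80.4, 93.7, 91.7 and 64.7 CPM at E9.5 and 183, 178 and 159 CPM at E10.5 (log2 difference 1.07 ± 0.28 (SE), adjusted p = 0.00205). Fdft1, the squalene synthase gene, was at 81.5, 87.4, 95.1 and 76.8 CPM at E9.5 and 173, 178 and 165 CPM at E10.5 (log2 difference 1.01 ± 0.21 (SE), adjusted p = 0.000129). Idi1, the isopentenyl diphosphate isomerase gene, was at 119, 148, 127 and 111 CPM at E9.5 and 275, 238 and 214 CPM at E10.5 (log2 difference 0.93 ± 0.25 (SE), adjusted p = 0.00214). In all 4, named as the largest changes of the list, every E10.5 library exceeded every E9.5 library. This held for 18 of the 23 genes, beside 19.4% of all genes. Srebf2, the pathway's transcription factor gene, did not pass (adjusted p = 0.854).

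Because many of these genes rose, the 250 bases before the start are shown for 3 of them, from RefSeq on GRCm38.p6 and read 5′ to 3′ on the gene's strand. Capitals mark CCAAT on either strand (ATTGG on the other) and TCACNCCAC, letters of the sterol regulatory element, and the motifs do not overlap here. The windows are chr8:64733579-64733828 on the minus strand for Msmo1, chr13:8885356-8885605 on the plus strand for Idi1 and chr13:119690101-119690350 on the plus strand for Hmgcs1.
Msmo1: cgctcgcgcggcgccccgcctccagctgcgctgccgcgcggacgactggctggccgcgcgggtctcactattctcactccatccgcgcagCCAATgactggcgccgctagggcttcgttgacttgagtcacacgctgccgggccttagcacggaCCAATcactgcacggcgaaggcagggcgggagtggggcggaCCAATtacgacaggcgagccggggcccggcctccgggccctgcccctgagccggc
Idi1: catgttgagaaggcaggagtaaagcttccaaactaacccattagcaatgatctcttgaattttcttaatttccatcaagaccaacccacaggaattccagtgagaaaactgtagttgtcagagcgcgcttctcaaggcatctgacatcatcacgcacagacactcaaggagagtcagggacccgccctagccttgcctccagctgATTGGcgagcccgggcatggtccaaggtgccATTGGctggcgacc
Hmgcs1: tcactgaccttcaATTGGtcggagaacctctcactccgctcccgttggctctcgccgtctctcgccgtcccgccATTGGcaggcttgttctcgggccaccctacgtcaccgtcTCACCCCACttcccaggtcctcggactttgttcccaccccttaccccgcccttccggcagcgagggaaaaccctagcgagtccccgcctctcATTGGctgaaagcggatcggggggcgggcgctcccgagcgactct
Msmo1 held CCAAT at 3 places, Idi1 at 2 and Hmgcs1 at 3, and Hmgcs1 held the sterol letters at 1 place. CCAAT was in 16 of the 17 pathway genes with a sequence (94.1%), 10 of 11 that rose and 6 of 6 that did not, and in 4601 of 11361 genes (40.5%). TCACNCCAC was in 1 of 17 and in 139 of 11361 genes (1.22%).

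More cell cycle genes rose than fell, by small steps. Of 42 genes of G2 and M phase 18 rose and 4 fell (median 0.22), and of 40 genes of S phase 13 rose and 7 fell (median 0.17; 4 fell without E10.5 replicate 2). The shares called were 52.4% and 50%, beside 34.3% of all genes. With single libraries left out, 12 to 20 genes of G2 and M phase rose, and 9 to 15 of S phase. In wildtype PA1, G2 and M phase gave 15 higher and 6 lower, but S phase 6 higher and 10 lower. The sum of the S phase list overlapped between the stages, at 9050.2 to 9454 CPM at E9.5 and 8970 to 10317 CPM at E10.5. Mki67, the proliferation marker gene, was at 166, 177, 168 and 172 CPM at E9.5 and 243, 257 and 221 CPM at E10.5 (log2 difference 0.49 ± 0.14 (SE), adjusted p = 0.00376). Nusap1, a spindle gene, was at 116, 151, 121 and 111 CPM at E9.5 and 201, 192 and 208 CPM at E10.5 (log2 difference 0.69 ± 0.12 (SE), adjusted p = 1.3e-05). Cdt1, the replication licensing gene, was lower (89.1, 78, 81.8 and 95.6 CPM at E9.5 and 56.3, 50.7 and 60.7 CPM at E10.5; log2 difference -0.61). Inhibitor and p53-response genes also gave more rises, 8 higher and 1 lower of 21, among them Ccng2 at 49.3, 54.5, 69.3 and 69.3 CPM at E9.5 and 132, 148 and 132 CPM at E10.5 (log2 difference 1.18 ± 0.19 (SE), adjusted p = 1.18e-06), Trp53inp1 (1.15) and Cdkn1a (0.59), the p21 gene, whose call was lost without E9.5 replicate 2 or 3 or E10.5 replicate 3 (adjusted p = 0.0592 to 0.109).

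BMP pathway genes fell more often than they rose, 13 against 6 of 31. Id4, a target, was at 38.8, 50.8, 44.3 and 43.2 CPM at E9.5 and 9.67, 12.2 and 13.1 CPM at E10.5 (log2 difference -1.84 ± 0.20 (SE), adjusted p = 1.82e-10). Smad6, the inhibitor gene, was at 40.6, 28.4, 62.1 and 53.5 CPM at E9.5 and 17.3, 21.3 and 18.2 CPM at E10.5 (log2 difference -1.19 ± 0.28 (SE), adjusted p = 0.000613). The ligand Bmp4 was at 25.4, 26.8, 72.1 and 33.2 CPM at E9.5 and 21.1, 20.1 and 17.1 CPM at E10.5, highest in E9.5 replicate 3 (log2 difference -0.86 ± 0.29 (SE), adjusted p = 0.0179). The call of Bmp4 was lost without E9.5 replicate 3 or E10.5 replicate 3 (adjusted p = 0.073 to 0.17), with a log2 difference of -0.53 without E9.5 replicate 3. The receptor gene Bmpr1b rose (18.4, 12.9, 15.8 and 22.3 CPM at E9.5 and 50.1, 57.4 and 43.3 CPM at E10.5; log2 difference 1.50). Hedgehog genes gave 6 higher and 2 lower of 22 (1 lower without E9.5 replicate 5 or E10.5 replicate 3), a share called of 36.4% that is near the 34.3% of all genes. Among them were Foxf1 at 3.78, 2.56, 3.5 and 18.8 CPM at E9.5 and 29.3, 59.5 and 29.6 CPM at E10.5, with E9.5 replicate 5 highest (log2 difference 2.62 ± 0.48 (SE), adjusted p = 1.66e-05), and the coreceptor Gas1 at 139, 119, 112 and 154 CPM at E9.5 and 278, 274 and 283 CPM at E10.5 (log2 difference 1.09 ± 0.15 (SE), adjusted p = 5.6e-08). The response genes Ptch1 and Gli1 did not pass (adjusted p = 0.99 and 0.145). Wnt genes were divided, 15 higher and 13 lower of 55, or 50.9% called. Only 9 were higher without E10.5 replicate 2, and 8 lower without E10.5 replicate 1. Dkk2, an inhibitor gene, was at 4.86, 1.57, 2.34 and 3.89 CPM at E9.5 and 27.1, 28.1 and 23.2 CPM at E10.5 (log2 difference 2.77 ± 0.64 (SE), adjusted p = 0.000504). Axin2, a feedback target, was at 7.19, 4.8, 5.69 and 9.12 CPM at E9.5 and 15.8, 14.8 and 16.7 CPM at E10.5 (log2 difference 1.15 ± 0.22 (SE), adjusted p = 2.94e-05), and the nuclear factor gene Tcf7 at 87.2, 83.9, 76.5 and 61.8 CPM at E9.5 and 22.8, 13.2 and 17.1 CPM at E10.5 (log2 difference -2.09 ± 0.18 (SE), adjusted p = 8.79e-14).

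Notch genes gave 7 lower and 1 higher of 23, or 34.8% called, the share of all genes being 34.3%. Among them were Hey1, a target, at 88.6, 84.4, 77.9 and 83.4 CPM at E9.5 and 38.6, 39 and 37.4 CPM at E10.5 (log2 difference -1.10 ± 0.19 (SE), adjusted p = 5.12e-06) and Jag1, the ligand, at 72.1, 69.9, 83.8 and 85.9 CPM at E9.5 and 25.1, 23.8 and 20.7 CPM at E10.5. Retinoic acid genes gave 4 higher and 5 lower of 21, or 42.9% called, beside 34.3% of all genes. Only 3 of them were lower without E9.5 replicate 3 or 5 or E10.5 replicate 1 or 3. Their median of 0.03 turned negative without E9.5 replicate 2 or 3 or any E10.5 library (-0.02 to -0.12). Crabp1, the retinoid-binding protein gene of crest, was at 623, 699.8, 724 and 396 CPM at E9.5 and 208, 226 and 227 CPM at E10.5 (log2 difference -1.43 ± 0.22 (SE), adjusted p = 6.02e-07), and the receptor gene Rarg rose (27.5, 25.7, 21.1 and 29 CPM at E9.5 and 44.5, 45.1 and 47 CPM at E10.5; log2 difference 0.80) as Rarb fell (9.06, 4.88, 11.8 and 12.8 CPM at E9.5 and 3.47, 4.42 and 4.27 CPM at E10.5; adjusted p = 0.000328). Guidance genes fell more often, 20 against 9 of 58, or 50% called. Plxna4, a semaphorin receptor gene, was at 24.6, 24.7, 36 and 18.2 CPM at E9.5 and 2.22, 2.63 and 2.66 CPM at E10.5 (log2 difference -2.90 ± 0.41 (SE), adjusted p = 1.02e-07). Epha3, an ephrin receptor gene, was at 40.6, 41.4, 13.6 and 63.6 CPM at E9.5 and 155, 198 and 127 CPM at E10.5 (log2 difference 2.14 ± 0.41 (SE), adjusted p = 3.78e-05). Imprinted growth genes gave 4 higher and 6 lower of 27, a share called of 37% beside 34.3% of all genes. Immediate early and stress genes, which dissection can induce, gave 7 lower and 1 higher of 19, or 42.1% called. Only 4 were lower without E10.5 replicate 1, and none was higher without E9.5 replicate 1 or 5 or E10.5 replicate 1 or 3. Junb was at 9.85, 8.19, 10.3 and 8.66 CPM at E9.5 and 1.19, 1.79 and 2.94 CPM at E10.5 (log2 difference -1.82 ± 0.22 (SE), adjusted p = 3.54e-09).

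**Figure D3:**
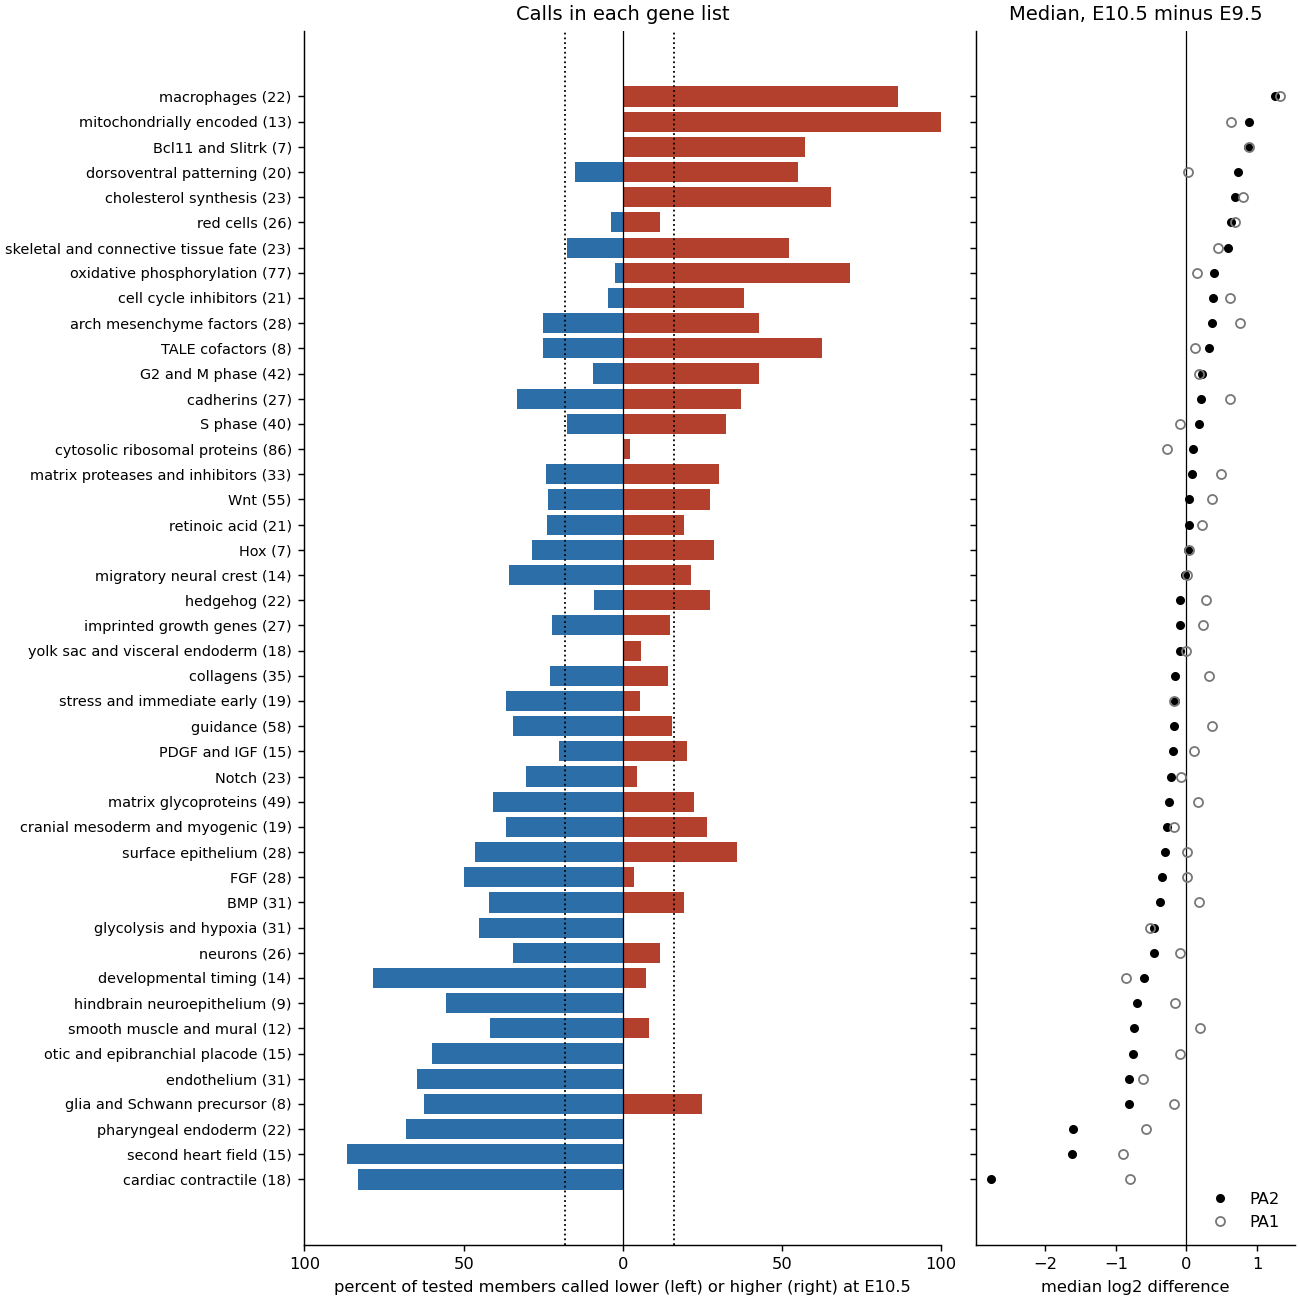
On the left, bars give the percent of each list's tested members (number in brackets) called lower (blue, to the left) or higher (red, to the right) at E10.5 in wildtype PA2, and dotted lines mark all genes tested (18.3% and 16.1%). On the right, points give each list's median log2 difference in PA2 (filled) and PA1 (open); cardiac contractile genes are lowest in PA2 and macrophage genes highest.

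The same interval was measured in PA1 of wildtype embryos, where 7543 of 18428 genes (40.9%) were called, 3655 higher (19.8%) and 3888 lower (21.1%). With scaling by the column total alone these were 4712 and 3042. Of the 15 largest PA2 rises 12 were also called higher in PA1, and of the 15 largest falls 6 were also called lower there. The difference between the arches in stage change was tested directly. It passed for 503 genes (2.73%), 156 with the PA2 change above the PA1 change (0.847%) and 347 with it below (1.88%). With the embryo as a random block, since both arches came from the same embryos, it passed for 1440 genes, and for 1268 with a fixed block. Scaling by the column total alone split the calls 106 to 491, and leaving out single libraries gave 198 (without PA2 E10.5 replicate 1) to 980 (without PA1 E9.5 replicate 2). Among the 503 genes, 37 rose in PA2 with no call in PA1, 130 fell in PA2 with no call in PA1, 137 rose and 84 fell in PA1 with no call in PA2, 34 fell in PA2 and rose in PA1, and 9 rose in PA2 and fell in PA1.

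**Figure D4:**
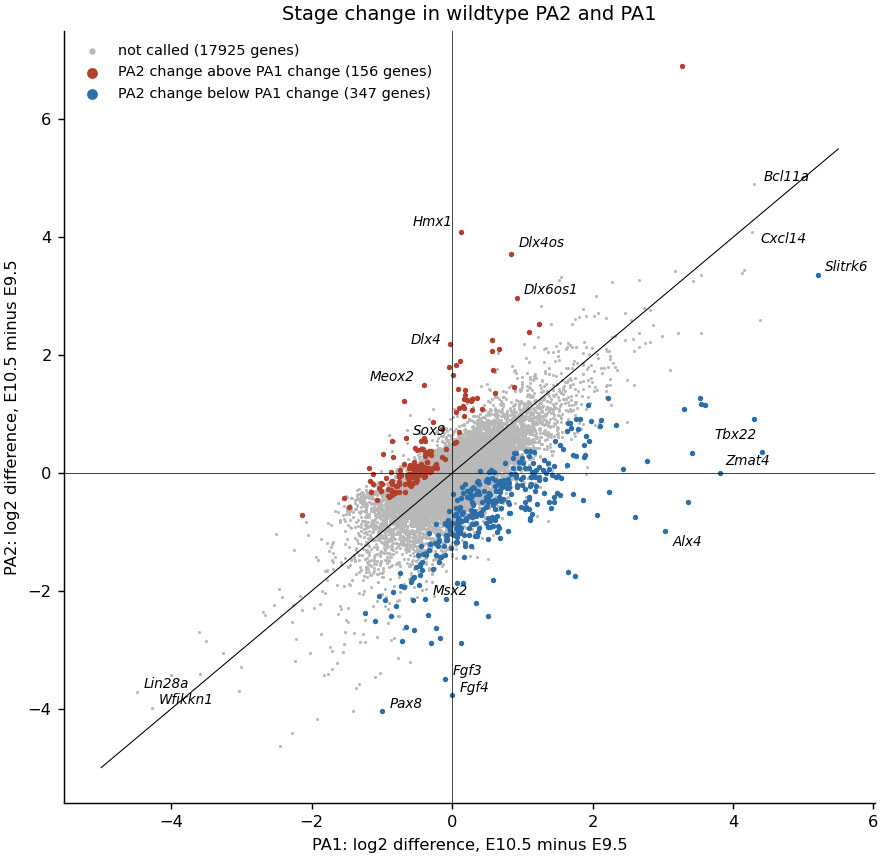
Each point is a gene, with the log2 difference, E10.5 minus E9.5, in wildtype PA1 on the x axis and in wildtype PA2 on the y axis, and the diagonal marks equal change. Red and blue points passed the test of the difference (156 and 347 genes); Hmx1, Dlx4os and Dlx4 lie above the diagonal, Tbx22, Alx4 and Zmat4 far to its right, and Fgf3 and Fgf4 below it.

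The largest differences toward PA2 were those of Hmx1, Dlx4os, Dlx4, Dlx6os1 and Meox2. Hmx1 was at 0.478 ± 0.356 to 0.647 ± 0.515 CPM in PA1 (SD, n = 5 and 3), against 1.32 ± 1.82 to 31.7 ± 2.31 CPM in PA2 (n = 4 and 3), a difference in log2 change of 3.97 ± 0.54 (SE), adjusted p = 1.05e-06. Dlx4os changed by 0.84 in PA1 and 3.72 in PA2 (difference 2.87 ± 0.66 (SE), adjusted p = 0.00747), and Dlx4 by -0.03 and 2.20 (difference 2.22 ± 0.52 (SE), adjusted p = 0.00945). Meox2, a homeobox gene of muscle precursors, was at 4.77 ± 1.51 to 3.34 ± 1.4 CPM in PA1 (difference 1.90 ± 0.39 (SE), adjusted p = 0.00217). Dlx6os1 lay at the threshold (difference 2.06 ± 0.61 (SE), adjusted p = 0.05) and failed it under several alternatives. Sox9 rose in PA2 but was lower in PA1, from 119 to 73.4 CPM (difference 1.25 ± 0.29 (SE), adjusted p = 0.00778). The noncoding gene 3110099E03Rik changed by 3.28 in PA1 and 6.90 in PA2 (difference 3.63 ± 0.44, SE; adjusted p = 6.07e-08).

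Among the largest differences toward PA1 were those of Tbx22, Alx4, Zmat4 and Fgf4, of which all but Fgf4 rose in PA1. Tbx22, a palate T-box gene, was at 0.177 ± 0.266 to 23.6 ± 1.71 CPM in PA1 and at 0.2 ± 0.0624 to 0.553 ± 0.27 CPM in PA2 (difference -4.05 ± 0.38 (SE), adjusted p = 3.74e-11). Alx4, a frontonasal and jaw homeobox gene, was at 5.03 ± 2.53 to 46.3 ± 11.5 CPM in PA1 and fell in PA2 from 9.72 ± 1.71 to 4.37 ± 0.628 CPM (difference -4.03 ± 0.42 (SE), adjusted p = 8.31e-10). Zmat4, a zinc finger gene, changed by 3.82 in PA1 and by 0.01 in PA2 (adjusted p for the difference 8.31e-10). Fgf4 was at 0 in every PA1 library of both stages. Its difference (-3.77 ± 0.48 (SE), adjusted p = 2.87e-07) did not pass in edgeR. Fgf3 fell in PA2 and was at 0.11 ± 0.048 to 0.0357 ± 0.031 CPM in PA1 (difference -3.40 ± 0.44 (SE), adjusted p = 3.3e-07). Other genes with a call below zero included Msx1 (-1.34), which rose from 151 to 365 CPM in PA1, Msx2 (-1.76), Tnc (-3.01), Aldh1a2 (-2.26), the retinoic acid synthesis gene, and Slitrk6 (-1.84).

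Among the 3 stage markers, Bcl11a and Bcl11b changed by 4.30 and 4.13 in PA1, and the difference from PA2 did not pass (adjusted p = 0.668 and 0.5). The timing genes Lin28a (-4.49 in PA1), Trim71 (-2.66) and Mycn (-1.37) also gave no call of a difference between the arches. The fit used here does not pair the arches by embryo, and a missing call in it does not show equal change. Macrophage genes gave 19 higher and none lower of 22 in PA1 as well, cholesterol synthesis genes 17 higher and none lower of 23, and endothelial genes 20 lower and none higher of 31, with the test of the difference passed by none, none and 1 of their members. Of the cardiac genes 1 was higher and 1 lower in PA1, but none of the 18 passed the test of the difference. Of the 28 FGF genes 6 were higher and 4 lower in PA1, where 40.9% of all genes were called. The test of the difference was passed by 8 of the 28, beside 2.73% of all genes. These 8 all had the PA2 change below the PA1 change. Of the 28 arch mesenchyme factor genes 18 were higher and 3 lower in PA1, and 11 passed it in that direction and 1 in the other.

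PA2 labelled Hoxa2-/- went through the same interval in libraries on the other side of the division seen in Ski. There 2665 genes (14.5%) were called, 1191 higher (6.46%) and 1474 lower (8.0%). Calls in the same direction in both numbered 2140, which is 33.8% of those in wildtype PA2 and 80.3% of those in the labelled group, and 3 genes were called in opposite directions. All 15 largest rises and all 15 largest falls of wildtype PA2 were called in the same direction. Bcl11a was at 3.65 ± 5.36 to 45.1 ± 12 CPM there (SD, n = 5 and 3), Hmx1 at 1.84 ± 3.91 to 20.7 ± 3.87 CPM, Fgf3 at 23.2 ± 10.2 to 2.9 ± 1.72 CPM and Lin28a at 105.3 ± 13.7 to 30 ± 11.5 CPM. The log2 differences of these 4 genes in the labelled group were 3.85, 3.67, -2.59 and -1.85, beside 4.90, 4.10, -3.50 and -3.72 in wildtype PA2. Cholesterol synthesis genes gave no call there (0 of 23, median 0.34). The label and the division coincide at these stages, so differences between the wildtype and the labelled group cannot be told apart from it, and none was tested.

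Levels of the other stages of wildtype PA2 place the interval. Bcl11a had an E9.0 mean of 0.363 CPM and an E10.0 mean of 16.6 CPM, and Hmx1 had an E9.0 mean of 0.132 CPM and an E10.0 mean of 18.2 CPM. Cxcl14 had an E9.0 mean of 3.46 CPM and an E10.0 mean of 3.29 CPM, with a higher mean at E9.0 than at E9.5. Lin28a had an E9.0 mean of 150.0 CPM and an E10.0 mean of 69.1 CPM, Fgf3 had an E9.0 mean of 26.3 CPM and an E10.0 mean of 6.01 CPM, and Pax1 had an E9.0 mean of 71.5 CPM and an E10.0 mean of 55 CPM. For Bcl11a, Hmx1, Lin28a, Fgf3 and Pax1 the E10.0 mean thus lay between those of E9.5 and E10.5. For mt-Co1, with an E9.0 mean of 848 CPM and an E10.0 mean of 841 CPM, it lay near that of E9.5. The E10.0 libraries lie on the other side of the division seen in Ski, so their levels are given without a test.

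**Figure D5:**
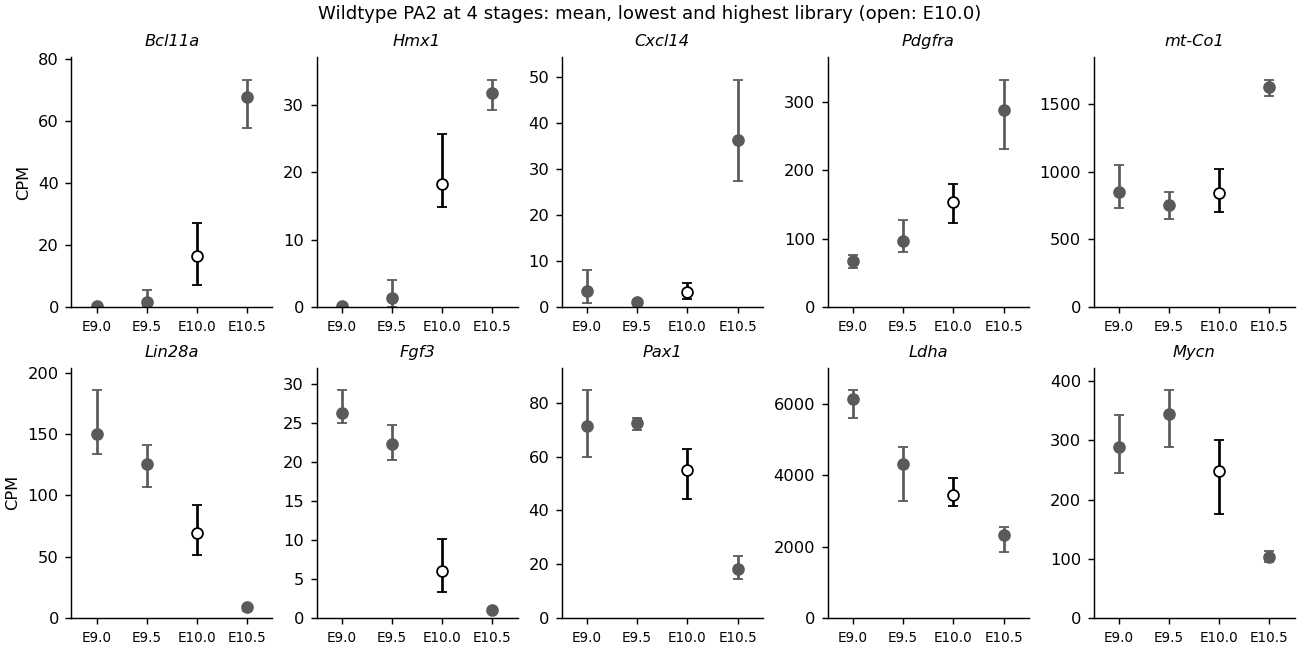
Points give the mean CPM of wildtype PA2 at 4 stages (n = 4, 4, 5 and 3) on linear axes from 0, with bars from the lowest to the highest library and open points for E10.0, whose libraries stand apart. Bcl11a and Hmx1 are near 0 at E9.0 and E9.5, while Lin28a, Fgf3, Pax1, Ldha and Mycn are high at both early stages and lowest at E10.5.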

How the data were processed

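The authors deposited 1 table of CPM values with 21948 genes in rows and 68 libraries in columns. Its unit was recorded as a signal, since column totals ran from 926298 to 1051959. The deposited signal equals whole reads divided by scaled library sizes: in 67 libraries 100% of the values came out whole (tolerance 0.01 reads). For 1 PA1 library labelled Hoxa2-/- at E9.0 whole reads could not be recovered from its values. It was left out of count tests but kept in the limma fit. Planning had assumed plain CPM; the tests were run as written. Of the genes, 21852 exceeded 0.5 CPM in at least 2 libraries. Per the labels' protocols, RNA was extracted with TRIzol, cDNA was made with SMART-seq v4 and libraries with Nextera XT from polyadenylated RNA. PCR copies are not marked, so floors cover counting error only. Per the submitters' processing notes, bcl2fastq 2.18, TopHat2 2.1.1, R 3.3.2 and mm10 were used; the counting program, annotation and strandedness are not given in the sources used here. Symbols (21921 genes) and coordinates came from GENCODE M21 (mm10), and sequences from RefSeq tables.

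Genes with at least 1 CPM in at least 3 libraries (18428) were tested in R 4.3.3 with limma 3.58.1, after log2(CPM + 1), so differences of weakly expressed genes come out too small. All 68 libraries entered the fit, with 1 mean for each of 16 groups. The prior variance was trended, tests were two-sided, p-values were adjusted by Benjamini and Hochberg over the genes tested, and the threshold was 0.05. Every adjusted p without another name is from this limma fit. On simulated reads of this comparison (18188 genes) it called 89% of 100 genes changed 2-fold and 100% of 100 genes changed 4-fold. It also made 11 false calls there. These shares hold for the simulated reads only, and the share found in the real libraries was not tested. Replicates are biological per the series text, and replicate pairs differed beyond counting noise (chi-square per degree of freedom 7.59 to 14.3). PA1 and PA2 of 1 number and stage came from 1 embryo per the series text; their deviations from the group means correlated at 0.471, -0.0752, 0.0219 and 0.478 at E9.5 and 0.462, 0.419 and 0.381 at E10.5, so the embryo was an alternative block.

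The comparison, gene lists and named genes were chosen with earlier results of these data known. Named were the 15 largest called changes in each direction with at least 5 CPM at a stage, no overlap and a symbol that is neither a Gm number nor ends in Rik, the 3 stage markers, up to 4 members per list with the largest change, members that define a list, and the 5 largest arch differences in each direction, of which not all are given and some are not reported here. Alternatives were other pseudocounts (0.25 and 5), filters, scalings, libraries in the fit, a sex covariate, sample weights, blocks, leaving out each library, and edgeR 4.0.16 and DESeq2 1.42.0 on the recovered reads. List members missing from the table are not analysed here.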

Additional observations from a re-analysis of the deposited data

Results flagged for a closer look

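In wildtype PA2 at E9.5, 1 library of 4 stood far from the other 3 in 34 of 308 genes and list sums tested, where chance flags about 1 in 20, or 15.4. Many of these items move together, since list sums hold their own members and the Y-linked genes were all high in replicate 2. Setting 34 beside 15.4 therefore does not measure an excess over chance. Replicate 5 was highest for Bcl11a (5.55 CPM), Bcl11b (4.92), Foxf1 (18.8), Foxf2 (11.8), Col3a1 (508), Lama2 (3.78), Ung (65.9) and the sum of Bcl11 and Slitrk genes (17.9), and lowest for Edn1 (25.5) and Fgf10 (19.1). Replicate 3 was highest for the heart and outflow genes Tnni1 (131 CPM), Nkx2-5 (15.5), Bmp4 (72.1) and Tnc (141), for Slc16a3 (170), for Cdkn1c (265), and for the sums of second heart field genes (660) and glial genes (162). Replicate 2 was highest for the globin genes Hbb-bh1 (1090 CPM) and Hba-x (1120), the red cell sum (5970), Pcdh9 (1.57), Ccne2 (89.7) and Msc (10.6), and for the Y-linked genes Kdm5d (36.7), Ddx3y (53.8), Eif2s3y (39.9) and Uty (49.1). It was lowest for the vessel genes Sox17 (9.02), Cdh5 (17.5) and Kdr (67.2) and for Fgfr1 (94.5). Replicate 1 was highest for Rpl19-ps3 (0.887) and Alx4 (12.3). The part of these libraries in the stage differences was tested by leaving each of them out.

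The change from E9.5 to E10.5 differed between PA2 and PA1 in 40 named genes by the test of the difference, given here as PA2 minus PA1 on the log2 scale. The PA2 change was above the PA1 change for Hmx1 (3.97), Dlx4os (2.87), Dlx4 (2.22), Dlx6os1 (2.06), Meox2 (1.90), Sox9 (1.25), Moxd1 (1.22), Tfap2b (1.14), Hoxaas2 (1.08), Cdkn1a (0.99) and Meis2 (0.67). Below it were the homeobox and T-box genes Tbx22 (-4.05), Alx4 (-4.03), Alx1 (-3.35), Msx2 (-1.76), Msx1 (-1.34), Gbx2 (-1.34) and Irx3 (-1.25). Epithelial and placode genes below it were Pax8 (-3.04), Sox2 (-1.22) and Grhl1 (-1.17), and FGF genes were Fgf4 (-3.77), Fgf3 (-3.40), Spry1 (-1.27), Fgf8 (-1.22), Etv4 (-1.08) and Dusp6 (-0.64). Retinoic acid genes below it were Aldh1a2 (-2.26), Rarb (-1.64), Cyp26b1 (-1.54) and Crabp1 (-1.26). The rest were Zmat4 (-3.81), Slitrk6 (-1.84), Tnc (-3.01), Des (-1.60), Smad6 (-1.36), Id4 (-1.25), Cdkn1c (-1.20), Ski (-1.06) and Tcf7 (-1.04). Ski also marks the division between libraries of the series, on the same side of which all these wildtype libraries lie.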

How the results depend on the processing

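The count of 6326 genes called in wildtype PA2 lay between 5502 (filter of 5 CPM) and 8052 (sample weights) over the alternatives that kept all 7 libraries, with 6429 in edgeR and 6632 in DESeq2, and between 4977 (without E10.5 replicate 1) and 6016 (without E9.5 replicate 2) when single libraries were left out. The higher calls then ran from 2303 to 2780 and the lower calls from 2674 to 3236. The number of calls beyond 1 on the log2 scale, 1070 in the report, was 1622 with a pseudocount of 0.25, 463 with a pseudocount of 5, 1857 in edgeR, 1860 in edgeR with DESeq2 size factors (added after seeing the data) and 1857 in DESeq2, and 969 (without E9.5 replicate 3) to 1137 (without E9.5 replicate 2) with libraries left out. A smaller pseudocount widens log2 differences of low genes by construction. Replicate numbers of E9.5 and E10.5 name different embryos, and same-numbered libraries did not deviate together (r = 0.0414, -0.0740 and -0.0549). A replicate block on the numbers gave 5080 calls, against 6135 in the same 6 libraries without it. With the embryo as a random replicate block across the arches the count was 6407.

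The difference between the arches in stage change moved more. Its 503 calls became 2471 with sample weights, 1440 with the embryo as a random replicate block, 1268 with it as a fixed block and 774 in DESeq2, and ran from 198 (without PA2 E10.5 replicate 1) to 980 (without PA1 E9.5 replicate 2) with libraries left out. Other single libraries that moved it by over 1.5 times were PA1 E9.5 replicates 1 (287) and 3 (304), PA1 E10.5 replicates 1 to 3 (306, 258 and 227), PA2 E9.5 replicates 3 (249) and 5 (326) and PA2 E10.5 replicate 3 (238). The 2665 calls in PA2 labelled Hoxa2-/- became 4543 with sample weights and ran from 1530 (without its E10.5 replicate 1) to 3148 (without its E9.5 replicate 4), with 1776 without its E10.5 replicate 3. The cause of these moves was not tested.

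No named gene that passed the test was called in the other direction under an alternative. Scaling by the column total alone turned the split of calls in wildtype PA2 from 2961 higher and 3365 lower to 3314 and 3105. List medians near 0 (Hox, migrating crest, Wnt, hedgehog, retinoic acid, proteases) and that of the sex-linked genes changed sign when single libraries were left out. Of 690 values of the 30 largest changes over the alternatives 689 kept their call, and the exception was Actc1 without E9.5 replicate 3. These 30 genes were chosen as the largest calls in the same libraries, so few losses could occur and the count does not speak for other genes. Over all 269 named genes 5973 of 6177 values kept their side of the threshold, 131 values of 34 genes lost the call and 73 gained it. At the read depths here 3 reads are worth up to 0.248 CPM, so genes near that level, such as Fgf4 at E10.5, have no fold.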

Other observations

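Among genes without a conventional symbol, the noncoding gene 3110039I08Rik (chr9:41327077-41716994, plus strand) was picked after its values were seen. It was at 4.39, 3.97, 5.59 and 10.9 CPM at E9.5 and at 71.3, 90.6 and 60.0 CPM at E10.5, with replicate 5 highest at E9.5 (log2 difference 3.45 ± 0.38, SE; adjusted p = 2.90e-10). Its means were 5.29 CPM at E9.5 and 95.2 CPM at E10.5 in PA1, and the difference in change between the arches did not pass (-0.70 ± 0.53, SE; adjusted p = 0.467). The noncoding gene 3110099E03Rik, by contrast, had a larger change in PA2 than in PA1, and its PA2 means at E9.0 and E10.0 were 0.0924 ± 0.0877 CPM (SD, n = 4) and 18.0 ± 9.89 CPM (n = 5). In PA2 labelled Hoxa2-/- it was at 0.493 ± 0.895 CPM at E9.5 (n = 5) and 6.29 ± 2.76 CPM at E10.5 (n = 3), a log2 difference of 2.37 ± 0.30 (SE).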
